A study of Homo sapiens with 11 samples.

Results

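A set of 10 genes of the cellular antioxidant system was followed in renal cancer cells exposed to a 4-drug mixture. They are the stress-responsive transcription factor NRF2 (gene NFE2L2), its repressor KEAP1, the quinone reductase NQO1, and the genes GCLC, GCLM, SLC7A11, GSR, TXN, TXNRD1 and SRXN1, which serve glutathione and thioredoxin. The 10 were chosen by symbol, for their place in this pathway and after earlier results of these data had been seen, out of the 26485 gene symbols counted. All 10 had a row at both times and all 10 passed the filter on low counts. RNA came from Caki-1-SR clone 1, a single clone of the human Caki-1 clear cell renal carcinoma line, which derives from a skin metastasis. The clone was selected for growth despite the receptor tyrosine kinase inhibitor sunitinib, and was maintained in medium with 1 µM of that drug, controls included. Treated cells (ODC, named ODC_REMP in the study) received the ruthenium complex Rapta-C at 2 µM, the EGFR inhibitor erlotinib at 1 µM, the antidiabetic metformin at 1 µM and parthenolide, a plant lactone that reacts with thiols, at 5 µM. Control cells (CTRL) did not receive the mixture, and are called both untreated and sham-treated by the study. There were 3 CTRL and 3 ODC libraries at 24 h, and 2 CTRL and 3 ODC libraries at 2 h, 11 in all.

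NRF2 is made continuously and destroyed continuously. KEAP1 holds it in the cytoplasm and hands it to a CUL3 ubiquitin ligase, and reactive electrophiles that modify cysteines of KEAP1 stop this transfer, so that NRF2 enters the nucleus, pairs with a small MAF protein and binds antioxidant response elements near its target genes. Because this step acts on the protein, the mRNA of NFE2L2 itself need not move when NRF2 does. The targets fall into a glutathione arm, with cystine import by SLC7A11, glutamate-cysteine ligase made of GCLC and GCLM, and reduction of oxidized glutathione by GSR, and a thioredoxin arm, with thioredoxin (TXN), its reductase (TXNRD1) and sulfiredoxin (SRXN1), which repairs overoxidized peroxiredoxins. In renal carcinoma the pathway is known to be activated by mutations in some tumours.

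The antioxidant response element is the sequence that joins these genes, so its core, TGACNNNGC, was searched on both strands from position -1000 to +49 around RefSeq transcription start sites in hg38, with the first transcribed base as position 0. RefSeq promoters matched 8 of the 10 genes. SLC7A11 and GSR were not matched. Of the 8, 6 held at least 1 core, and 7 of their 11 start sites did. Over all 35116 start sites 33.7% held a core in the same 1050 bases, so a match by letters is common and is no evidence of binding. NFE2L2 and SRXN1 had none in this window. The lines that follow give 1 match per gene, on the strand where the core reads forwards, with the core in capitals and 12 bases on each side. The cores lie at chr16:69727007-69727015 on the minus strand for NQO1 (-455 to -447), chr1:93909456-93909464 on the plus strand for GCLM (-34 to -26), chr19:10502794-10502802 on the plus strand for KEAP1 (-31 to -23), chr12:104286930-104286938 on the minus strand for TXNRD1 (-102 to -94), chr9:110257080-110257088 on the plus strand for TXN (-581 to -573) and chr6:53545963-53545971 on the plus strand for GCLC (-870 to -862).
NQO1: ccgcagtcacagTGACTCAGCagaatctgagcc
GCLM: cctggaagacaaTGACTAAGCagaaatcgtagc
KEAP1: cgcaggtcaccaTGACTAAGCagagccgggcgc
TXNRD1: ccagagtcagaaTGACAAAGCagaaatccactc
TXN: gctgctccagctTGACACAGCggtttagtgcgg
GCLC: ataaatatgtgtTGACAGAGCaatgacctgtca
The GCLM and KEAP1 cores printed here have the same 9 letters. The core of NQO1 also contains TGACTCA, the site of AP-1, so those letters cannot tell the factors apart. KEAP1 had 1 further match, with other letters in its core, and TXNRD1 had 2, which makes 9 matches in all.

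Libraries held between 17785229 and 20882856 counts at 24 h and between 25782895 and 31118349 at 2 h, and a level of 3 counts was worth 0.0964 to 0.169 CPM, the count of a gene scaled to the total of its library. Levels of the 10 genes and of related genes are CPM with TMM scaling, a correction for differences in RNA composition, computed within each time, and levels of cell type markers are CPM without it. Of the markers read for renal epithelial cancer cells, PAX8, VIM, KRT8, KRT18 and MET were high in all 11 libraries, whereas PAX2 and CA12 were at or near 0. CDH6 was present in all 11, but at 218 to 420 CPM at 2 h and at 6.19 to 65.9 CPM at 24 h. Markers of leukocytes (PTPRC, CD3E) and endothelium (PECAM1, CDH5, KDR) were at 0.349 CPM or less, VWF at 0.504 CPM or less, and the monocyte and lysosome markers CD14 and CD68 at up to 2.46 and 15.3 CPM. A pair of libraries stood apart. CTRL replicate 1 at 2 h held 37.7 CPM of COL1A2, 41.9 CPM of COL3A1 and 2.83 CPM of DCN, fibroblast genes that reached at most 0.353 CPM in any other library. The summed level of the 5 fibroblast markers was 324 CPM in it and 66.4 to 169 CPM in the other 10 libraries, mostly from COL1A1, which reached 238 CPM in it and 59.8 to 165 CPM elsewhere, while PDGFRB, at 3.53 CPM, was not raised in it. Its 4 endothelial markers summed to 1.28 CPM, against at most 0.205 CPM elsewhere. ODC replicate 3 at 24 h had 253 genes at least 2-fold away from the rest of its group, against 5 to 191 in the other 24 h libraries. Results of the 10 genes and of the gene lists that rest on either library are given with and without it. The titles of the libraries carry another month for each time, so time and month cannot be told apart.

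At 24 h, 1 of the 10 genes, NQO1, reached an adjusted p under 0.05, against 0.189% of the 12689 genes tested, 24 genes in all. At an unadjusted p under 0.05 there were 3, NQO1, GSR and TXNRD1, against 12.2% of genes. NQO1 was also the only one that paired an unadjusted p under 0.05 with a change of at least 2-fold, which 2.35% of genes did. In 4 of the 10 genes (KEAP1, NQO1, GSR and TXNRD1) every ODC library lay above every CTRL library, against 9.42% of genes, and no gene of the 10 showed the reverse. Point estimates were above 0 for 9 of the 10, against 6363 of the 12689 genes tested. The median log2 fold change of the 10 was 0.34, where the median of all genes was 0.00089. Without ODC replicate 3, 7 of the 10 were above 0, with a median of 0.23, against 6465 of 12836 genes. In bulk RNA, a change in how many cells carry an mRNA and a change in how much each carries cannot be told apart.

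NFE2L2, on chromosome 2 (177218667 to 177392756, minus strand), was level between groups at 24 h. CTRL libraries held 98.2, 96.2 and 92.6 CPM and ODC libraries 90.3, 99.8 and 91.9 CPM. The ranges overlapped, and the log2 fold change was -0.026 with a 95% interval of -0.23 to 0.18 (edgeR quasi-likelihood test, adjusted p = 0.939). Exons of NFE2L2 in the annotation overlap those of HNRNPA3 by 3509 bases on the opposite strand and those of a noncoding RNA by 2037 bases on the same strand.

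KEAP1, on chromosome 19 (10486125 to 10503558, minus strand), held 127.3, 131.8 and 120.7 CPM in CTRL and 148.3, 139.3 and 143.9 CPM in ODC. All ODC libraries were above all CTRL libraries, but by little. The log2 fold change was 0.18 (95% interval -0.014 to 0.38, edgeR adjusted p = 0.447).

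NQO1, on chromosome 16 (69706996 to 69726668, minus strand), encodes the reductase that converts quinones to hydroquinones in a single step and is the classical reporter of NRF2 activity. Levels were 194.7, 183.1 and 221.2 CPM in CTRL and 574.8, 604.1 and 564.7 CPM in ODC. The groups were far apart, and the 3 ODC libraries lay close together, replicate 3 included. The mean rose from 200 ± 19.5 to 581 ± 20.5 CPM (SD, n = 3 each), a 2.91-fold increase (log2 fold change 1.54 ± 0.10 SE, 95% interval 1.31 to 1.77). Its adjusted p in edgeR was 0.00216, and it ranked 2 of 12689 genes by p. Without ODC replicate 3 the log2 fold change was 1.56 (edgeR adjusted p = 0.00758).

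GSR encodes glutathione reductase, which regenerates reduced glutathione from its disulfide with NADPH. CTRL libraries held 98.4, 88.8 and 85.4 CPM and ODC libraries 148.1, 131.0 and 142.1 CPM. The groups did not overlap. The means were 90.9 ± 6.75 and 140 ± 8.69 CPM (SD, n = 3 each), a ratio of 1.54 and a log2 fold change of 0.63 ± 0.099 SE (95% interval 0.40 to 0.86), with an unadjusted p of 2.23e-04 that adjustment over all genes took to 0.0685 in edgeR. Without ODC replicate 1 the log2 fold change was 0.59 and the edgeR adjusted p 0.295. With CTRL and ODC libraries of adjacent library numbers taken as pairs, a pairing the labels do not state, the adjusted p was 0.0104. In that fit 3 of the 10 genes (NQO1, GSR and SRXN1) had an adjusted p under 0.05, against 5.41% of all genes.

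**Figure D1:**
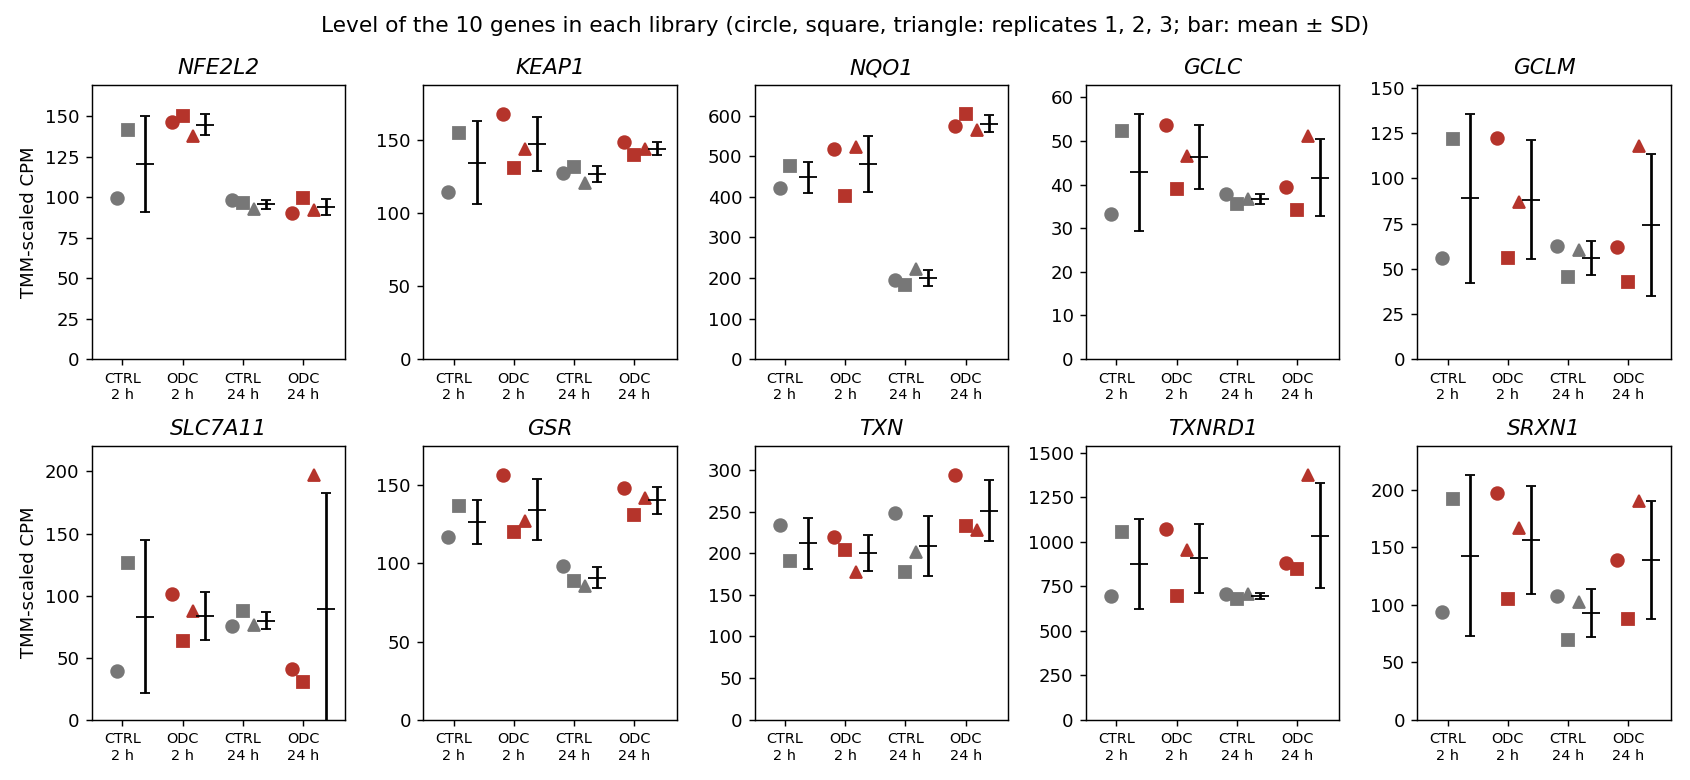
Level of each of the 10 genes in each of the 11 libraries, as TMM-scaled CPM on linear axes from 0. Circles, squares and triangles are replicates 1, 2 and 3, grey is CTRL, red is ODC, and each black bar is the mean with its SD (the lower end for SLC7A11 in ODC at 24 h falls under 0 and is cut by the axis). At 24 h the ODC points of KEAP1, NQO1, GSR and TXNRD1 lie above all CTRL points, and for GCLC, GCLM, SLC7A11, TXNRD1 and SRXN1 ODC replicate 3 is the highest point.

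The thioredoxin arm had its clearest difference in TXNRD1, on chromosome 12 (104215779 to 104350307, plus strand), the selenoenzyme that reduces thioredoxin. It held 705.4, 678.6 and 704.6 CPM in CTRL and 880.7, 847.9 and 1376.1 CPM in ODC. Every ODC library lay above the CTRL libraries, which were nearly equal, and ODC replicate 3 stood well above the other two. The log2 fold change was 0.57 ± 0.18 SE (unadjusted p = 0.0137, adjusted p = 0.260 in edgeR). Without ODC replicate 3 it was 0.31 (edgeR adjusted p = 0.174).

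SRXN1, on chromosome 20 (646615 to 653200, minus strand), held 107.3, 69.4 and 102.6 CPM in CTRL and 139.1, 87.8 and 190.2 CPM in ODC. Replicate 2 was the lowest library of its group in both, and the groups overlapped. The log2 fold change was 0.58 (95% interval -0.060 to 1.22, edgeR adjusted p = 0.455) and 0.28 without ODC replicate 3. With adjacent libraries paired it was 0.54 with an edgeR adjusted p of 0.0479. A protein-coding gene without a symbol shares 2292 exon bases with SRXN1 on the same strand.

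TXN, the small disulfide reductase itself, lies on chromosome 9 (110243810 to 110256507, minus strand). Its levels were 247.7, 177.5 and 201.4 CPM in CTRL and 293.8, 232.1 and 227.4 CPM in ODC. The ranges overlapped through CTRL replicate 1, and the log2 fold change was 0.27 (95% interval -0.087 to 0.62, edgeR adjusted p = 0.544). It was 0.40 without CTRL replicate 1 and 0.14 without ODC replicate 1. The annotation names 7 pseudogenes of TXN, so reads may have been shared with them.

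For the genes that make glutathione the ODC libraries differed among themselves. GCLC, the catalytic subunit of glutamate-cysteine ligase, which sets the pace of glutathione synthesis, lies on chromosome 6 (53497341 to 53616970, minus strand). It held 37.8, 35.5 and 36.7 CPM in CTRL and 39.4, 34.2 and 51.2 CPM in ODC. Only ODC replicate 3 stood clear of CTRL. The log2 fold change was 0.18 (95% interval -0.17 to 0.54, edgeR adjusted p = 0.700), and 0.0040 without that library.

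GCLM, the modifier subunit that raises the activity of GCLC, lies on chromosome 1 (93885199 to 93909456, minus strand). CTRL libraries held 62.5, 45.4 and 60.2 CPM, and ODC libraries 62.0, 42.8 and 118.2 CPM. Replicates 1 and 2 were at nearly the same level in both groups, and ODC replicate 3 was far above them. The log2 fold change was 0.41 (95% interval -0.36 to 1.18, edgeR adjusted p = 0.686), and -0.098 without ODC replicate 3.

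SLC7A11, the cystine importer xCT, lies on chromosome 4 (138164097 to 138242349, minus strand). It held 75.4, 87.8 and 76.1 CPM in CTRL and 41.1, 30.3 and 197.1 CPM in ODC. A pair of ODC libraries lay under all CTRL libraries and the other lay above all of them. With all 6 libraries the log2 fold change was 0.17 with a 95% interval of -1.25 to 1.59 (edgeR adjusted p = 0.943). Without ODC replicate 3 it was -1.16 ± 0.16 SE (edgeR adjusted p = 0.0345), and NQO1 and SLC7A11 were then the 2 of the 10 genes with an adjusted p under 0.05, against 0.545% of all genes. The direction of SLC7A11 at 24 h therefore rested on 1 library.

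ODC replicate 3 was the highest of the 6 libraries at 24 h for 5 of the 10 genes (GCLC, GCLM, SLC7A11, TXNRD1 and SRXN1), and for 20.0% of all genes tested. It was the lowest of the ODC libraries for NQO1 and for TXN.

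**Figure D2:**
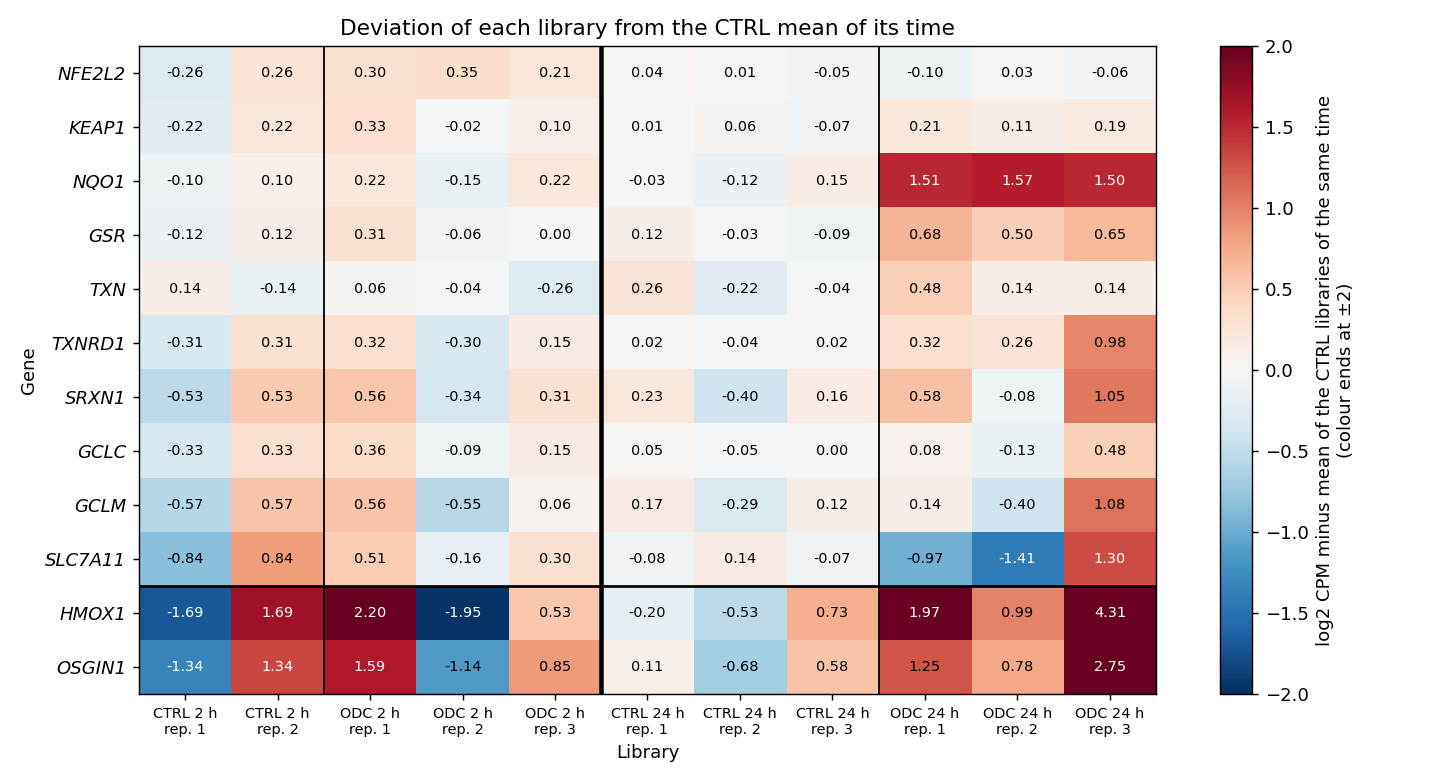
Log2 CPM of each library minus the mean of the CTRL libraries of its time, for the 10 genes and for HMOX1 and OSGIN1, with 2 h on the left of the thick line and 24 h on the right. Numbers are the deviations, red is above and blue below the CTRL mean, and the colour ends at ±2. ODC replicate 3 at 24 h is above the CTRL mean in every row but NFE2L2, and at 2 h CTRL replicate 1 and ODC replicate 2 are blue while CTRL replicate 2 and ODC replicate 1 are red in most rows.

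At 2 h none of the 10 genes passed an adjusted or an unadjusted p under 0.05 in edgeR, where 0.0% of the 13332 genes tested passed the first and 2.34%, 312 genes, the second. DESeq2 also gave 0 genes at an adjusted p under 0.05. None of the 10 had groups that did not overlap, against 15.3% of genes. Log2 fold changes ran from -0.083 for TXN to 0.27 for NFE2L2, with a median of 0.094. They were above 0 for 8 of 10, against 6427 of the 13332 genes tested. Without CTRL replicate 1 the value for NFE2L2 was 0.036. In that fit 3 of 10 were above 0 with a median of -0.12, against 7105 of 13532 genes above 0. The spread within the groups was wide. For GCLM the 95% interval reached from -0.86 to 0.84 and for SLC7A11 from -0.94 to 0.96. Changes within these bounds, in either direction, were therefore not excluded.

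NQO1 at 2 h held 421.7 and 475.9 CPM in CTRL and 519.6, 401.5 and 523.8 CPM in ODC. The ODC libraries lay on both sides of CTRL, and the log2 fold change was 0.10 (95% interval -0.20 to 0.40, edgeR adjusted p = 1.00). The CTRL level at 2 h was above the 183.1 to 221.2 CPM of CTRL at 24 h and under the 564.7 to 604.1 CPM of ODC at 24 h. The tables of the 2 times were scaled separately.

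GSR held 116.6 and 136.5 CPM in CTRL and 156.5, 120.0 and 126.8 CPM in ODC at 2 h, with overlap and a log2 fold change of 0.087 (edgeR adjusted p = 1.00). TXN held 233.4 and 190.3 CPM against 219.1, 203.8 and 177.0 CPM, all ODC libraries being under CTRL replicate 1. NFE2L2 held 99.7 and 141.3 CPM against 146.5, 150.4 and 137.8 CPM, and KEAP1 114.3 and 154.6 against 167.5, 130.4 and 143.6 CPM. CTRL replicate 1 was the lowest of the 5 libraries for 6 of the 10 genes, both regulators among them, and for 23.7% of all genes tested.

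GCLM at 2 h held 55.9 and 121.9 CPM in CTRL and 122.2, 55.9 and 86.9 CPM in ODC. TXNRD1 held 698.3 and 1057.4 CPM against 1070.5, 695.0 and 956.5 CPM. SRXN1 held 93.4 and 192.4 CPM against 197.7, 105.1 and 166.7 CPM. In each of these, 1 CTRL and 1 ODC library were high and 1 CTRL and 1 ODC library were low. GCLC followed with 33.4 and 52.2 CPM against 53.7, 39.1 and 46.5 CPM, and SLC7A11 with 39.4 and 126.7 CPM against 101.1, 63.1 and 87.5 CPM. For SLC7A11 the highest of the 5 libraries was 3.21 times the lowest, for GCLM 2.19 times and for SRXN1 2.12 times.

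The libraries took the same order in most of these genes. In 7 of the 10 (KEAP1, GCLC, GCLM, SLC7A11, GSR, TXNRD1 and SRXN1) the highest 2 of the 5 libraries were CTRL replicate 2 and ODC replicate 1 and the lowest 2 were CTRL replicate 1 and ODC replicate 2, an order that 2.78% of all genes tested had and that was noticed in these values. It does not follow the labels of the groups, and was not tested. Nothing in the 2 h counts checks which libraries were treated, and every fold change at 2 h holds only as far as the labels of these libraries do.

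What the 2 h comparison gave depended on which CTRL library was kept. Without CTRL replicate 1, the library with fibroblast transcripts, SLC7A11 alone had an unadjusted p under 0.05, with a log2 fold change of -0.59, against 2.51% of genes, and it alone had groups that did not overlap, against 47.1% of genes. Without CTRL replicate 2, 5 of the 10 did at an unadjusted p under 0.05 (NFE2L2, KEAP1, GCLC, SLC7A11 and SRXN1), against 8.72% of genes, with log2 fold changes of 0.55, 0.38, 0.49, 1.10 and 0.76. The groups of 7 of the 10 then did not overlap, against 57.6% of genes. SLC7A11 thus took opposite signs in these fits. Adjusted p values of the 10 genes were 0.143 or more in both. The part of the fibroblast transcripts in these results was not tested. With 1 CTRL library left, edgeR took the spread from the ODC libraries.

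**Figure D3:**
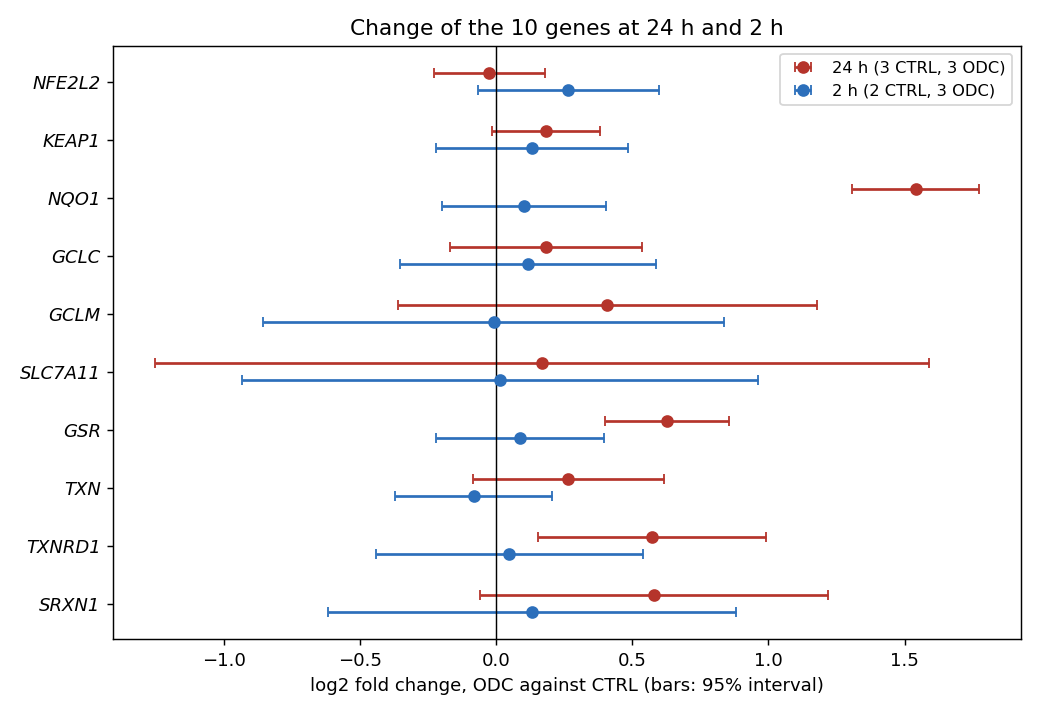
Log2 fold change of ODC against CTRL for the 10 genes at 24 h (red, 3 CTRL and 3 ODC libraries) and at 2 h (blue, 2 CTRL and 3 ODC libraries), with 95% intervals from edgeR. At 24 h the intervals of NQO1, GSR and TXNRD1 lie above 0, and at 2 h every interval includes 0.

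The effect at 24 h minus the effect at 2 h was tested for each gene in 1 fit of all 11 libraries. NQO1 passed an adjusted p under 0.05, 1 of the 10 against 0.015% of the 13333 genes tested (2 genes in all, the other being FTL). Its difference was 1.42 ± 0.17 SE on the log2 scale (95% interval 1.06 to 1.79, edgeR adjusted p = 0.0174). Without single libraries that adjusted p rose to as much as 0.115. At an unadjusted p under 0.05 there were 2 of the 10, NQO1 and GSR, against 5.93% of genes. The difference for GSR was 0.52 (unadjusted p = 0.0112, edgeR adjusted p = 0.611). For the other 8 genes it lay between -0.31 for NFE2L2 and 0.51 for TXNRD1, with intervals that included 0.

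Per kilobase of annotated exon, the 10 genes kept a wide order of levels. Mean CPM per kilobase in CTRL at 24 h was 207 for TXN, 104 for TXNRD1, 67.2 for NQO1, 36.8 for SRXN1, 35.4 for KEAP1, 25.2 for GSR, 10.3 for GCLM, 8.27 for SLC7A11, 6.39 for NFE2L2 and 4.26 for GCLC. Single CTRL libraries overlapped on this scale between SRXN1 and KEAP1 and between GCLM and SLC7A11, and between no other neighbours in that order. In ODC the mean of NQO1 was 196 and that of TXNRD1 154, the reverse of the order in CTRL. ODC replicate 3 of TXNRD1 nevertheless lay above every ODC library of NQO1. Each length used is the union of all annotated exons of a gene, 6710 bases for TXNRD1 and 2971 bases for NQO1. The order of these genes in ODC depends on those lengths. In CPM not divided by length, the ODC mean at 24 h was 1035 for TXNRD1 and 581 for NQO1. The length of NFE2L2, 14975 bases, is likewise such a union and lowers its value.

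Around these 10 genes, 8 lists of related genes were read at 24 h, beside the 12.2% of all genes with an unadjusted p under 0.05 (7.20% higher and 5.04% lower in ODC). Among regulators and partners of NRF2, 17 of 18 were tested and 2 passed that threshold, both higher in ODC, with a median log2 fold change of 0.039. SQSTM1, the autophagy receptor p62, which sequesters KEAP1, held 535, 630 and 609 CPM in CTRL and 878, 885 and 1351 CPM in ODC. All its ODC libraries lay above CTRL, with a log2 fold change of 0.81 (edgeR adjusted p = 0.128). MAFK, a small MAF partner, had 0.59 (adjusted p = 0.270), MAFG 0.35 (adjusted p = 0.533) and BACH1, which competes with NRF2 for its sites, -0.035 (adjusted p = 0.954). SQSTM1 had 0.58 (adjusted p = 0.0711) and MAFG 0.072 without ODC replicate 3. In the list 1 gene was then higher at an unadjusted p under 0.05 and none lower (median 0.025).

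The other genes of glutathione and of peroxide removal were read as 5 lists. Of 15 tested genes of glutathione supply and breakdown, 1 was higher and 4 were lower at an unadjusted p under 0.05 (median -0.18). Glutathione synthetase, GSS, had a log2 fold change of 0.20, and SLC3A2, the partner chain of SLC7A11, one of 0.12. CHAC1, which degrades glutathione, had -1.38 (29.4, 30.0 and 19.0 CPM in CTRL, 7.62, 7.73 and 14.8 CPM in ODC, edgeR adjusted p = 0.125) and CTH, which makes cysteine from cystathionine, -1.23 (edgeR adjusted p = 0.163). The groups of CHAC1 did not overlap, and without ODC replicate 3 its log2 fold change was -1.77 (edgeR adjusted p = 0.0291).

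Of 7 tested glutathione peroxidases and glutaredoxins, 2 were lower at that threshold and none higher (median -0.16), GPX8 by a log2 fold change of -0.56 and GLRX by -0.81. Of 11 tested glutathione S-transferases, 1 was higher and none lower (median 0.081). It was GSTZ1, at 0.48, and GSTM4, next by p, had 0.75. Of 18 tested thioredoxin and peroxiredoxin genes, 2 were higher and none lower (median -0.0014), namely SESN1 with 0.66 and PRDX1 with 0.30, while mitochondrial TXN2 had 0.0081 and the thioredoxin inhibitor TXNIP -0.42. Of 5 superoxide dismutase and catalase genes, 1 was higher, SOD2 with 0.38 (median 0.37), and CCS, the copper chaperone of SOD1, had 0.37. None of these genes had an adjusted p under 0.05 in edgeR. Without ODC replicate 3, 15.6% of all genes had an unadjusted p under 0.05. At that threshold 4 glutathione S-transferases and 3 superoxide dismutase and catalase genes were then higher and none lower. Glutathione supply and breakdown had 3 genes higher and 5 lower, and peroxidases and glutaredoxins 1 higher and 2 lower. Thioredoxin and peroxiredoxin genes had 2 higher and none lower.

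NQO1 had its counterparts among other known NRF2 targets. Of 29 tested genes of that list, 20 were higher and none lower at an unadjusted p under 0.05, with a median log2 fold change of 1.06, and 7 had an adjusted p under 0.05, all higher. The list was written with earlier results of these data known. The ferritin light and heavy chains, FTL and FTH1, which store iron, had log2 fold changes of 2.04 (edgeR adjusted p = 0.00216) and 1.53 (edgeR adjusted p = 0.0110). TRIM16L and TRIM16 had log2 fold changes of 2.20 (edgeR adjusted p = 0.00955) and 1.56 (edgeR adjusted p = 0.0110). HMOX1, heme oxygenase, held 21.0, 16.7 and 40.6 CPM in CTRL and 98.3, 49.7 and 490 CPM in ODC. Its groups did not overlap, but the ODC libraries differed among themselves and the log2 fold change of 3.03 had an edgeR adjusted p of 0.190. Without ODC replicate 3 it was 1.51 (edgeR adjusted p = 0.143), and in the list 22 genes of 30 tested were then higher at an unadjusted p under 0.05, none lower, with a median of 1.14.

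SLC7A11 is also a target of ATF4, the factor of the amino acid response, so that list was read beside it. Of its 14 tested genes, which include ATF4 itself and the CHAC1 described above, 6 were lower and 1 was higher at an unadjusted p under 0.05 (median -0.25), and none had an adjusted p under 0.05 in edgeR. Without ATF4 there were 5 lower and 1 higher of 13 (median -0.20). There were 8 lower and 1 higher of 14 without ODC replicate 3 (median -0.42). ATF4 held 347, 352 and 274 CPM in CTRL and 200, 186 and 215 CPM in ODC, with a log2 fold change of -0.70 (edgeR adjusted p = 0.0876). The ODC libraries of ATF4 lay together, replicate 3 included, where those of SLC7A11 did not. The list as a whole differed from ATF4 in this. Averaged over its 14 genes, log2 CPM less the CTRL mean was -0.53, -0.46 and 0.016 in ODC replicates 1, 2 and 3. The part of ATF4 in the pattern of SLC7A11 was not tested. PSAT1, of serine synthesis, had a log2 fold change of -0.91 (edgeR adjusted p = 0.0859). At 2 h all 14 had point estimates above 0 (median 0.27), against 6427 of 13332 genes. No listed gene reached an adjusted p under 0.05 there. The count above 0 rested on CTRL replicate 1, since without it 4 of 14 were above 0 (median -0.091), against 7105 of 13532 genes. Without CTRL replicate 2 all 14 were above 0 (median 0.62), against 6985 of 13776 genes. Likewise 21 of 29 other NRF2 targets were above 0 at 2 h (median 0.10), but 12 of 29 without CTRL replicate 1 (median -0.064).

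**Figure D4:**
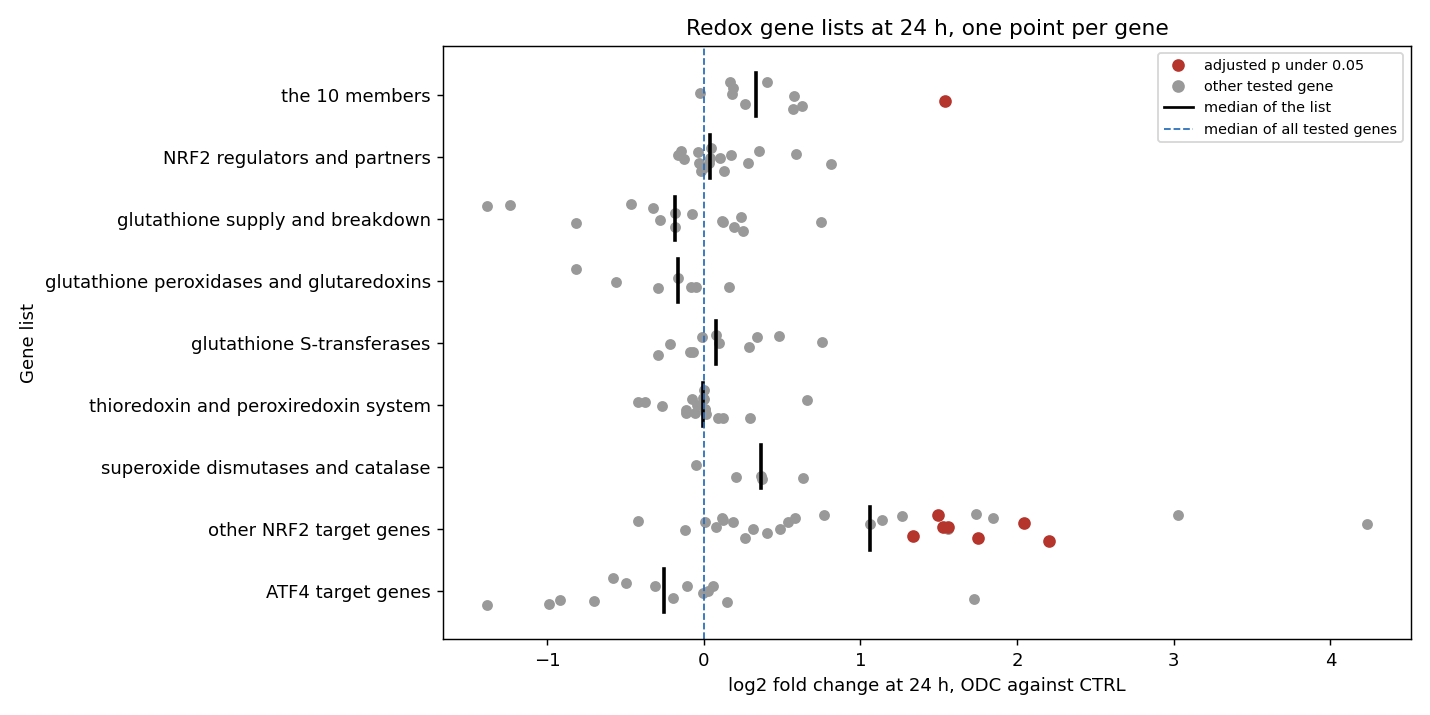
Log2 fold change of ODC against CTRL at 24 h for the 10 genes (top row) and 8 lists of related genes, with 1 point per tested gene. Red points have an adjusted p under 0.05, black bars are list medians, and the dashed line is the median of all genes tested. Red points occur in the top row, where NQO1 is the only one, and in the row of other NRF2 targets, which holds 7.

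The genes whose pattern over the 11 libraries was most like that of the 8 target genes (all but NFE2L2 and KEAP1) were HMOX1, OSGIN1, DNAJC1, ZNF654, LOC344887 and MIR22HG. Likeness was Pearson's r between the log2 CPM of a gene, less the CTRL mean of its time, and the mean of the same value over the 8. It was 0.965, 0.956, 0.947, 0.939, 0.929 and 0.922, and serves here as a description over 11 libraries that share 2 CTRL means. The 8 did not share a single pattern. Over the 6 libraries at 24 h, r of log2 CPM with GCLM was 0.77 to 0.98 for GCLC, SLC7A11, TXNRD1 and SRXN1. It was 0.30 for NQO1, 0.39 for GSR and 0.23 for TXN, so their mean does not stand for each of the 8. That mean includes the spread at 2 h. HMOX1 held 21.9 and 229 CPM in CTRL and 329, 17.9 and 104 CPM in ODC at 2 h, with the same libraries high and low as for GCLM. OSGIN1 held 10.6 and 69.4 CPM in CTRL and 83.3, 12.1 and 49.7 CPM in ODC at 2 h, and 6.78, 3.71 and 9.57 against 15.8, 11.3 and 44.8 CPM at 24 h. For both genes ODC replicate 3 was the highest library at 24 h.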

How the data were processed

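A set of 11 RNA libraries of Caki-1-SR clone 1 was sequenced by the study as single-end reads from stranded mRNA libraries. The authors deposited raw read counts per gene symbol, 1 table for each time, without normalization. The submitters' processing notes name STAR 2.7.0f, HTSeq 0.9.1 and edgeR 3.26.8 with hg38. The study's methods give other versions of STAR and edgeR, and which versions made the counts is not settled here. Replicate libraries differed by more than sampling noise (chi-square of 18.7 to 58.0 per gene), and nothing in the labels says that they were separate cultures on separate days, so p values measure the spread between these libraries.

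From the counts, ODC was compared with CTRL separately at 24 h and 2 h with edgeR 4.0.16 (R 4.3.3): filterByExpr at its defaults (at least 10 counts in enough libraries, 15 in total), TMM scaling, the earlier quasi-likelihood F test, two-sided, and Benjamini-Hochberg adjustment over 12689 and 13332 genes. The change of effect between times was a contrast over all 11 libraries and 13333 genes. The scripts were tested on simulated data. Floors of 3 counts cover counting error only. Alternatives were other filters, scalings, DESeq2 1.42.0, the newer quasi-likelihood method, a joint fit, and each library left out. Gene lists without the libraries that stood apart, and the ATF4 list without ATF4, were added after the data were seen. Library numbers alternate between CTRL and ODC at 24 h, so adjacent numbers were also tried as pairs. Within those pairs, how far each library lay from its group mean correlated with r of 0.24, 0.61 and 0.47, against -0.56 to 0.24 in the 6 combinations of other numbers. Deviations from a group mean balance out within the group, so high values in some combinations bring low ones in others. The other combinations are therefore no independent background. The labels do not say what libraries of adjacent numbers have in common.

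Positions and exon lengths came from GENCODE 44 and promoters from RefSeq, both on hg38. The 10 genes and the gene lists were chosen with earlier results of these data known. Named were the 10 genes, 11 set beforehand (among them SQSTM1, GSS and HMOX1), up to 4 called genes per list by p, otherwise the 2 of smallest p, and the 6 of most like pattern.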

Additional observations from a re-analysis of the deposited data

Results flagged for a closer look

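For NQO1 the effect at 24 h and the effect at 2 h differed by 1.42 on the log2 scale (edgeR contrast over 11 libraries, adjusted p = 0.0174). It was higher in ODC in 3 of 3 libraries at 24 h, and at 2 h the ODC libraries lay on both sides of CTRL. For FTL, the ferritin light chain, the difference was 1.92 (95% interval 1.44 to 2.40, edgeR adjusted p = 0.0174). FTL held 275, 265 and 327 CPM in CTRL and 1034, 1304 and 1235 CPM in ODC at 24 h, and 392 and 569 CPM against 568, 473 and 519 CPM at 2 h. Time and the month in the titles cannot be told apart in either difference.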

How the results depend on the processing

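NQO1 had an adjusted p under 0.05 at 24 h in all 14 alternatives (log2 fold change 1.48 to 1.62). GSR kept a log2 fold change of 0.58 to 0.68, and its adjusted p was highest, at 0.295 in edgeR, without ODC replicate 1. It was under 0.05 in 4 of 14. These were 0.0385 without a filter on low counts, 1.09e-04 in DESeq2, 0.0287 in the joint fit of 11 libraries and 0.0104 with adjacent libraries paired. In these 4 fits, 2, 2, 2 and 3 of the 10 genes were called. Genes called in all were then 92, 367, 186 and 686 instead of 24. Pairing gave 6 of the 10 genes an unadjusted p under 0.05, against 23.6% of all genes, and turned SLC7A11 to -0.34. The labels give the groups no shared replicate numbers, so this pairing rests on library numbers alone. With each library left out in turn at 24 h, genes called ran from 2 to 70, genes of the 10 called from 1 to 2 by adjusted and 3 to 5 by unadjusted p, and those without overlap from 4 to 7, while 6.98% to 15.6% of all genes had an unadjusted p under 0.05 and 21.9% to 33.1% no overlap. Log2 fold changes ran from -0.075 to 0.0024 for NFE2L2, from -0.098 to 0.68 for GCLM, from -1.16 to 0.58 for SLC7A11, from 0.0040 to 0.30 for GCLC, from 0.14 to 0.40 for TXN, from 0.31 to 0.69 for TXNRD1 and from 0.28 to 0.82 for SRXN1. At 2 h, genes called ran from 0 to 42, genes of the 10 by unadjusted p from 0 to 5 and those without overlap from 0 to 7, while 1.33% to 8.72% of all genes had an unadjusted p under 0.05 and 24.5% to 57.6% no overlap. Ranges were 0.036 to 0.55 for NFE2L2, 0.017 to 0.22 for NQO1, -0.071 to 0.38 for KEAP1, -0.17 to 0.49 for GCLC, -0.46 to 0.67 for GCLM, -0.59 to 1.10 for SLC7A11, -0.037 to 0.22 for GSR, -0.21 to 0.072 for TXN, -0.22 to 0.39 for TXNRD1 and -0.30 to 0.76 for SRXN1. For the difference between times, genes called ran from 0 to 4 and were 35 in DESeq2, and those of the 10 from 0 to 1. NQO1 kept a difference of 1.31 to 1.51 but had an adjusted p under 0.05 in 7 of 15 alternatives, and missed it in the other 8, each with 1 library left out (highest 0.115, without CTRL replicate 2 at 2 h). Ranges were -0.21 to 0.24 for KEAP1, -0.32 to 0.34 for GCLC, -0.28 to 0.87 for GCLM, -1.19 to 0.76 for SLC7A11 and -0.19 to 0.87 for SRXN1. The cause of these changes was not tested.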
